A study of Mus musculus with 8 samples.

Results

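The 10 genes described here were chosen by symbol as a set of inhibitory receptors and signalling phosphatases of mast cells. They were the phosphatases Inpp5d, Ptpn6 and Ptpn11 and the receptors Cd300a, Cd300lf, Pirb, Lilrb4a, Cd200r1, Cd200r3 and Milr1. All 10 had a row among the 24059 gene symbols of the count tables, and all 10 were among the 14934 genes that passed the filter on low counts. The samples were bone marrow-derived mast cells (BMMCs) of 4 C57BL/6 mice, young adults per the study's methods, grown from total marrow in IL-3 for at least 4 weeks. They were transfected with ribonucleoproteins (RNPs) of Cas9 and a guide RNA, and RNA was taken 1 week later from resting cells. The Scrambled group (4 samples, genotype given as Zc3h12a WT) received a non-targeting guide, and the Zc3h12a RNP group (4 samples, given as Zc3h12a KO) guides against the gene of the RNase Regnase-1. Both groups thus share the Cas9 transfection, and each knockout sample is an edited pool of cultured cells, not a clone.

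Mast cells are activated when antigen clusters IgE on their high-affinity Fc receptor, which starts a cascade of tyrosine phosphorylation. Inhibitory receptors restrain this cascade: when their cytoplasmic tyrosines are phosphorylated, typically within an immunoreceptor tyrosine-based inhibitory motif (ITIM), they recruit the tyrosine phosphatases SHP-1 and SHP-2 or the lipid phosphatase SHIP1. SHIP1 (Inpp5d) removes a phosphate from the membrane lipid PIP3, SHP-1 (Ptpn6) dephosphorylates signalling proteins near the receptor, and SHP-2 (Ptpn11) acts in many growth factor pathways, where it often promotes signalling.

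The codons of these tyrosines are shown because the ITIM is what joins the receptors to the phosphatases. They were read from the spliced GENCODE M39 reference transcripts (GRCm39), 5′ to 3′, with the codon of the central tyrosine in capitals. The ITIM pattern searched was a tyrosine with isoleucine, valine, leucine or serine ahead of it, with any residue between, and isoleucine, valine or leucine after it, with any pair of residues between.
Cd300a, first: gtggaaTATagcacattg
Cd300a, second: cttcacTATtcatccgtg
Cd300lf, first: ctctgtTATgcagacctg
Cd300lf, second: gtttcaTATgccgctctg
Pirb, first: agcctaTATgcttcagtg
Pirb, second: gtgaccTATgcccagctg
Pirb, last: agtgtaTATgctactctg
Lilrb4a, first: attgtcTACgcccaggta
Lilrb4a, second: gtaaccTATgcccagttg
The first Cd300a motif lies in exon 6 of 7 at chr11:114790672-114790689 on the plus strand, and the second Lilrb4a motif in exon 9 of 9 at chr10:51372290-51372307 on the plus strand. The first Pirb motif is split by an intron between exons 12 and 13 of 15. In the segment after the predicted membrane span the pattern matched 2 times in Cd300a, Cd300lf and Lilrb4a and 3 times in Pirb. It had no match there in Cd200r1, Cd200r3 and Milr1, and none in the 9 activating or truncated relatives searched: Lilrb4b, Pira1, Pira2, Pira12, Cd300lb, Cd300ld, Cd300c2, Cd200r2 and Cd200r4. These relatives had only 13 to 43 residues after the span, against 75 to 179 in Cd300a, Cd300lf, Lilrb4a and Pirb. The inhibitory receptor Fcgr2b, also searched, had 1 match with 52 residues after the span. Milr1 and Cd200r1 had no match with 79 and 65 residues. A shorter segment leaves less room for a match, so the absence in the relatives cannot be told apart from the length. Searched over the whole protein, the pattern also matched 1 time each in Ptpn6 and Ptpn11. The pattern is a loose one, present in the last 130 residues of 20.3% of 21770 mouse reference proteins, so a match is a description of the letters and not of a working site.

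A second motif, NPXY, is bound by adaptors with a phosphotyrosine-binding domain such as the Dok proteins and Shc, and it was found in the receptor CD200R1 and in SHIP1. It occurred in 3.61% of all reference proteins.
Cd200r1: aatccactcTAT
Inpp5d, first: aatccaaacTAC
Inpp5d, second: aacccactgTAT
The Cd200r1 copy is in exon 7 of 7 at chr16:44614602-44614613, and the Inpp5d copies are in exons 25 and 26 of 27, all on the plus strand. Cd200r3 had neither motif and only 9 residues after its predicted span, against 65 in Cd200r1. CD200R3 is known to pair with the activating adaptor DAP12 (Tyrobp), so its place among inhibitory receptors rests on its family and not on a motif of its own.

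The catalytic signature of the tyrosine phosphatases, in which the cysteine carries out the reaction, was found in Ptpn6 and Ptpn11 and in 0.689% of all reference proteins. In both genes it is joined from exons 11 and 12 of 16, with the cysteine codon in capitals.
Ptpn6: catTGCagcgctggcatcggccgcacg
Ptpn11: cacTGCagcgctgggattggccggaca
The proteins of these genes were identical at 57.6% of 573 aligned residues. Among the receptors, Cd300a and Cd300lf were identical at 36.2% of aligned residues, Cd200r1 and Cd200r3 at 40%, and Pirb and Lilrb4a at 49.1%.

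Depth ranged from 19610240 to 33986762 counts in the Scrambled samples and from 23712029 to 28564062 in the Zc3h12a RNP samples. The cells carried the markers of their label: 10 of 12 mast cell markers were above 1 CPM (read counts scaled to library size) in all 8 samples, with Tpsab1 at most 0.13 CPM and Mrgprb1 at 0.167 to 1.28 CPM, and their summed level was 50960 to 60800 CPM in Scrambled and 49120 to 52070 CPM in Zc3h12a RNP samples. Zc3h12a mRNA did not separate the groups, at 34.8 ± 6.65 CPM in Scrambled and 33.2 ± 5.91 CPM in Zc3h12a RNP samples (SD, n = 4). The difference on the log2 scale was -0.06 ± 0.10 (SE), with a two-sided exact sign-flip permutation p of 0.625, where 0.125 is the smallest 4 pairs can give. An edit that disrupts the protein need not lower the mRNA, so this level does not check the labels. Over all 14934 genes, the quasi-likelihood test of edgeR, blocked by replicate number, called 0%, where a call required an adjusted p at or under 0.05 and a log2 difference beyond 0.5. DESeq2 called 8 genes higher and 52 lower, and limma-trend 1 lower. By edgeR, 922 genes (6.17%) had an unadjusted edgeR p at or under 0.05.

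All 10 genes were expressed in all 8 samples. Per kilobase of exon, the mean level of the 8 samples was highest for Lilrb4a at 239 CPM per kilobase, followed by Ptpn6 at 112, Inpp5d at 83.3, Cd200r3 at 82.5, Cd300a at 52.0, Pirb at 30.4, Cd300lf at 23.4, Cd200r1 at 15.3, Ptpn11 at 10.98 and Milr1 at 7.64. The range over the 8 samples lay clear of the next lower gene at 3 steps of this order, below Lilrb4a, below Cd200r3 and below Cd300a. The ranges of the other neighbours overlapped. Within samples, Pirb was above Cd300lf in 8 of 8, Cd300lf above Cd200r1 in 7, Ptpn6 above Inpp5d, Cd200r1 above Ptpn11 and Ptpn11 above Milr1 in 6 each, and Inpp5d above Cd200r3 in 4. With the length of the canonical transcript in place of all exons, Cd300lf moved up to rank 5 and Ptpn11 down to rank 10.

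**Figure D1:**
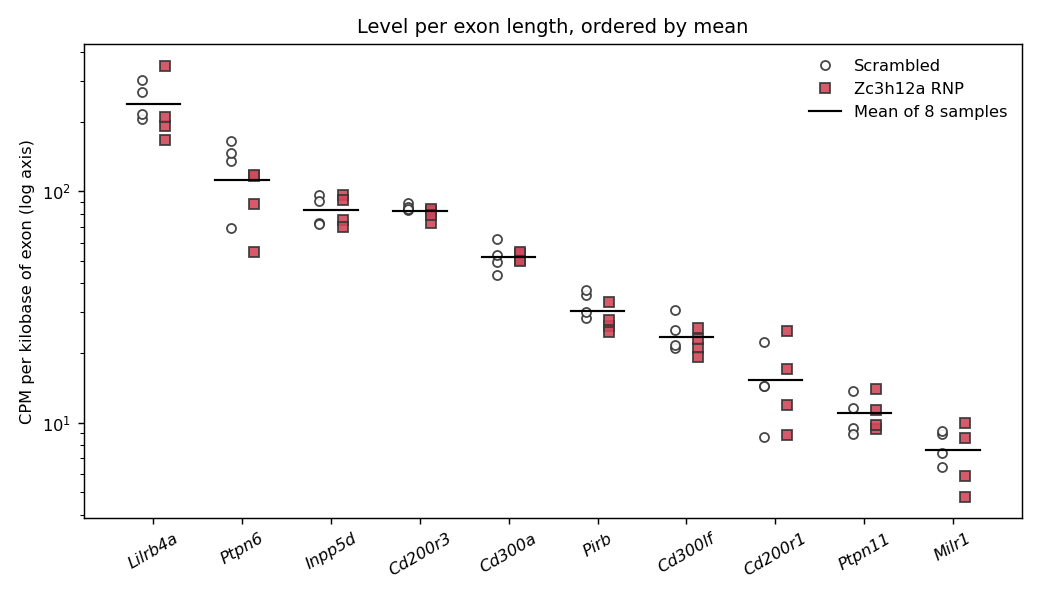
Level of each gene in CPM per kilobase of exon (vertical log axis) in the 4 Scrambled samples (open circles) and the 4 Zc3h12a RNP samples (filled squares), with the mean of the 8 samples as a bar. The means run from 239 for Lilrb4a down to 7.64 for Milr1, and the groups overlap for every gene.

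The rows of several genes may hold reads of other genes, most of all Lilrb4a and Pirb. Every 50-base window of the Lilrb4a transcript also lies in the readthrough model Gm49339, which runs across its neighbour Lilrb4b as well, and the proteins of Lilrb4a and Lilrb4b are identical at 88.4% of aligned residues. Lilrb4b had no row under that symbol, so whether the Lilrb4a row also holds its reads cannot be told. For Pirb, 38.2% of the windows recurred in other genes, mainly the activating Pira genes, whose own rows were low (Pira1 1.85 ± 0.69 CPM in Scrambled samples). Milr1 overlaps Polg2 on the opposite strand in 8.63% of its windows, and the strand setting of the counting is not given in the sources used here. Windows shared with another gene that has a row made up 7.3% for Cd300lf (mainly Cd300ld), 4.54% for Cd200r3, 3.61% for Cd300a and 2.17% for Cd200r1. With gene models that have no row included, the share was 12% for Cd200r1 (mainly Gm60988) and 7% for Ptpn6 (Gm20531).

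None of the 10 genes passed the test between the Zc3h12a RNP and Scrambled samples, where edgeR adjusted p ran from 0.401 to 0.996, and none was called by DESeq2 or limma-trend. At an unadjusted p at or under 0.05, 2 of 10 were lower (Ptpn6 and Pirb) and 0 were higher, while 4.05% of all tested genes were lower at that level. The fitted log2 fold change was below 0 for 6 genes and above 0 for 4, with a median of -0.12 for the 10 genes and 0.04 for all genes tested. Without regard to sign, the median size was 0.12 for the 10 genes and 0.14 for all genes. A level that was lower in all 4 pairs was seen for 3 of 10 genes (Ptpn6, Pirb and Cd300lf) and for 8.54% of all genes, and one that was higher in all 4 pairs for 0 of 10 genes and for 4.98% of all genes. The groups overlapped for all 10 genes, and 0.924% of all genes had groups without overlap. Fewer cells of a kind and less RNA per cell cannot be told apart in these bulk samples.

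**Figure D2:**
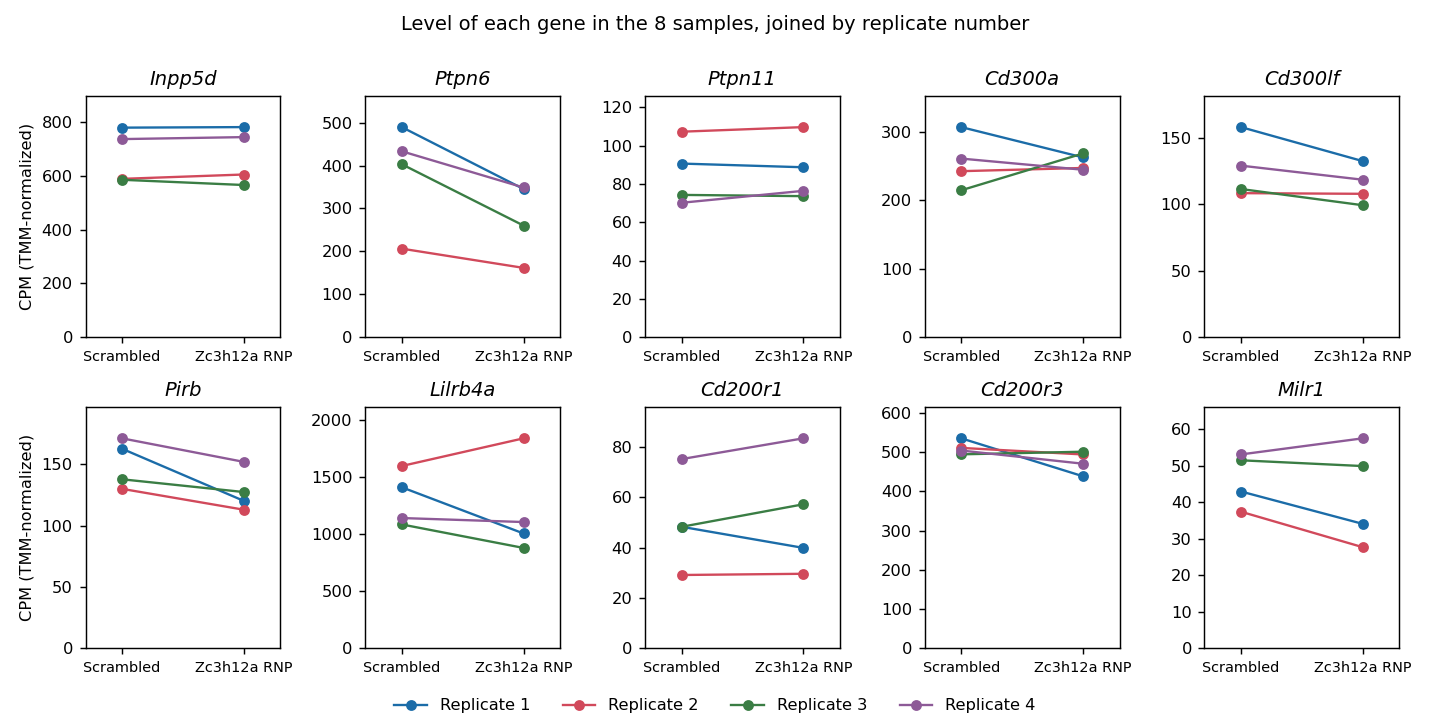
TMM-normalized CPM (linear vertical axis from 0) of each gene in the Scrambled and Zc3h12a RNP samples, with samples of the same replicate number joined by a line. All 4 lines fall for Ptpn6, from 206 to 489.5 CPM in Scrambled to 161.5 to 349 CPM in Zc3h12a RNP samples, while those of Inpp5d run nearly level.

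Among the phosphatases, Ptpn6 (chr6:124697670-124715840, minus strand) had the largest difference of the 10 genes. Its level was 489.5, 206, 403 and 433 CPM in Scrambled replicates 1 to 4 and 345, 161.5, 260.1 and 349 CPM in Zc3h12a RNP replicates 1 to 4. Each Zc3h12a RNP sample was below the Scrambled sample of its number, but the groups overlapped because replicate 2 was low in both. The means were 383 ± 123 CPM and 279 ± 88.4 CPM (SD, n = 4), and the log2 fold change was -0.45 ± 0.09 (SE), with differences of -0.50, -0.35, -0.63 and -0.31 in pairs 1 to 4. Its edgeR p was 0.000995 before and 0.401 after Benjamini-Hochberg adjustment, the 35th smallest of all genes. DESeq2 gave an adjusted p of 0.00454, with the fold change, -0.47, short of the 0.5 required for a call, and without the replicate block the unadjusted edgeR p was 0.151. Without replicate 1 the log2 fold change was -0.39 and the unadjusted edgeR p 0.0532.

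Ptpn11 (chr5:121268596-121329496, minus strand), which is expressed in most cell types, did not differ between the groups beyond its SE. Its level was 90.7, 107.3, 74.3 and 70.2 CPM in Scrambled samples and 88.7, 109.7, 73.7 and 76.4 CPM in Zc3h12a RNP samples, in replicate order. The samples of a number lay close together and the groups overlapped almost fully. The fitted difference was 0.03 ± 0.07 on the log2 scale (edgeR adjusted p = 0.966). Per kilobase of exon, Ptpn6 exceeded Ptpn11 14.3-, 5.10-, 14.4- and 16.4-fold in Scrambled and 10.3-, 3.91-, 9.37- and 12.1-fold in Zc3h12a RNP samples. The ratio was thus lower in the Zc3h12a RNP sample of every pair and lowest in replicate 2 of both groups.

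Inpp5d (chr1:87547989-87648230, plus strand), whose product opposes PI3-kinase signalling and limits degranulation, was measured at 779, 589, 585.5 and 737 CPM in Scrambled and at 781, 605, 566 and 744 CPM in Zc3h12a RNP samples. The values of a pair nearly coincided, and the differences between replicate numbers were larger than those between the groups. Its log2 fold change was 0.0021 ± 0.073 (edgeR adjusted p = 0.996), with pair differences from -0.05 to 0.04.

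The CD300 receptors bind lipids exposed on dying or activated cells, and Cd300a and Cd300lf lie in 1 gene cluster on chromosome 11. Cd300a (chr11:114768840-114795480, plus strand), a receptor for phosphatidylserine, was at 307, 243, 215 and 261 CPM in Scrambled and at 263, 247, 268.5 and 245 CPM in Zc3h12a RNP samples. The Zc3h12a RNP values fell within the Scrambled range, and 2 pairs went each way. Its log2 fold change was 0.01 ± 0.10 (edgeR adjusted p = 0.994), and its sign turned in 5 of 12 alternative settings.

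Cd300lf (chr11:115007040-115024818, minus strand), which binds ceramide and phosphatidylserine, was at 158, 108.4, 111.5 and 129 CPM in Scrambled and at 132.5, 107.9, 99.3 and 118.5 CPM in Zc3h12a RNP samples. Each Zc3h12a RNP sample was below its Scrambled partner, in replicate 2 by only 0.01 on the log2 scale, and the groups overlapped. Its log2 fold change was -0.14 ± 0.08 (edgeR adjusted p = 0.945), and -0.06 without replicate 1. Their activating relative Cd300lb, which signals through DAP12 and was present at 65.4 ± 26.8 CPM in Scrambled samples, had a log2 fold change of -0.24 ± 0.09 (edgeR adjusted p = 0.700). Cd300ld and Cd300c2 were low, at 0.585 ± 0.374 and 5.20 ± 1.92 CPM in Scrambled samples.

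Pirb and Lilrb4a belong to the leukocyte immunoglobulin-like receptors. Pirb (chr7:3714408-3723416, minus strand), which binds major histocompatibility complex (MHC) class I molecules, was at 163, 130.1, 138 and 171 CPM in Scrambled and at 120.3, 113, 127.5 and 152 CPM in Zc3h12a RNP samples. All 4 pairs were lower in the Zc3h12a RNP sample, most in pair 1 (-0.44) and least in pair 3 (-0.11), while the ranges of the groups overlapped. The means were 150.5 ± 19.6 and 128 ± 16.9 CPM, and the log2 fold change was -0.23 ± 0.08 (SE). Its edgeR p was 0.0276 before and 0.715 after Benjamini-Hochberg adjustment. Without replicate 1 the difference was -0.12 on the log2 scale, with an unadjusted edgeR p of 0.489.

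Lilrb4a (chr10:51367027-51372707, plus strand), known as gp49B and a receptor for an integrin, had the highest level of the 10 genes per length. It was at 1409, 1595, 1084 and 1140 CPM in Scrambled and at 1005, 1837, 879 and 1105 CPM in Zc3h12a RNP samples. The pairs disagreed: the Zc3h12a RNP sample was lower in pairs 1, 3 and 4 and higher in pair 2, which held the highest sample of each group. A log2 fold change of -0.16 ± 0.12 was fitted (edgeR adjusted p = 0.960), with the largest SE of the 10 genes. Without replicate 1 it was -0.0033.

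The CD200 receptors are encoded side by side on chromosome 16. Cd200r1 (chr16:44586096-44615343, plus strand), which binds CD200 on neighbouring cells, was at 48.25, 29.1, 48.2 and 75.1 CPM in Scrambled and at 39.9, 29.6, 57.2 and 83.3 CPM in Zc3h12a RNP samples. Replicate 2 was lowest and replicate 4 highest in both groups. Between the groups, the log2 fold change was 0.04 ± 0.10 (edgeR adjusted p = 0.967).

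Cd200r3 (chr16:44764041-44801743, plus strand), a receptor of mast cells and basophils, was nearly constant, at 535, 511, 494.5 and 504 CPM in Scrambled and 439, 494, 501 and 471 CPM in Zc3h12a RNP samples. Replicate 1 of the Zc3h12a RNP group was the lowest sample, and the groups overlapped. The fit gave a log2 fold change of -0.10 ± 0.08 (edgeR adjusted p = 0.960). Its adaptor Tyrobp was at 356 ± 101 CPM in Scrambled and 328 ± 47.5 CPM in Zc3h12a RNP samples. The activating relative Cd200r4 was at 189 ± 22.0 and 185 ± 10.1 CPM, and Cd200r2 was at 0.466 ± 0.147 CPM in Scrambled samples. The basophil proteases Mcpt8 and Prss34 were at most 8.51 and 2.25 CPM in any sample. Of the other basophil markers, Il4 was at 7.49 to 17.19 CPM, and Itga2 and Cebpa were at most 0.857 and 0.433 CPM. Cd200r3 itself is on that list of 6, and 3 of the 6 were above 1 CPM in all 8 samples.

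Milr1 (chr11:106642052-106659779, plus strand) encodes Allergin-1, an inhibitory receptor of mast cells that restrains anaphylaxis. It was the lowest of the 10 genes per length, and its level was 43.0, 37.45, 51.5 and 53.15 CPM in Scrambled and 34.1, 27.7, 49.96 and 57.6 CPM in Zc3h12a RNP samples. Pairs 1 and 2 were lower in the Zc3h12a RNP sample by 0.33 and 0.43 on the log2 scale, while pair 3 differed by -0.04 and pair 4 by 0.11. The log2 fold change was -0.17 ± 0.11 (edgeR adjusted p = 0.960). It was -0.07 without replicate 1, -0.03 without replicate 2, and -0.27 without replicate 3 or replicate 4.

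**Figure D3:**
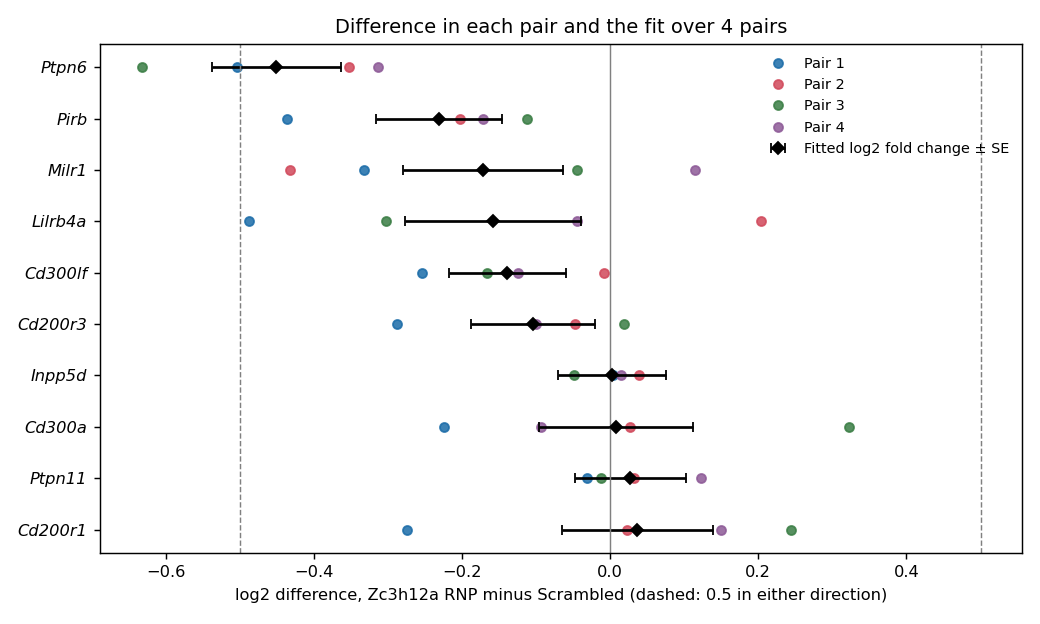
Log2 difference in CPM between the Zc3h12a RNP and the Scrambled sample of each replicate number (coloured points, horizontal axis) and the fitted log2 fold change with its SE (diamonds), for each gene. All points of Ptpn6, Pirb and Cd300lf lie below 0, and no fitted value lies beyond the dashed lines at 0.5 in either direction.

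The pairs did not contribute equally. In pair 1, 9 of the 10 genes were lower in the Zc3h12a RNP sample, with a median difference of -0.28 on the log2 scale against 0.03 for all genes. In pairs 2, 3 and 4 the numbers were 5, 7 and 6 of 10, with medians of 0.01, -0.05 and -0.07 against 0.01, 0.01 and -0.06 for all genes. The median log2 fold change of the 10 genes was -0.12 with all pairs and -0.00085 without replicate 1.

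Several of the genes differed widely between replicate numbers. The SD of the 4 pair means of log2 CPM was 0.59 for Cd200r1, 0.54 for Ptpn6, 0.36 for Milr1 and 0.35 for Lilrb4a, beside a median of 0.25 over the 4338 genes with a mean level at or above the lowest of the 10. The pair means of Cd200r1 spanned 2.69-fold, those of Ptpn6 2.25-fold and those of Milr1 1.72-fold, each with its lowest value in pair 2, as for Pirb. Lilrb4a and Ptpn11 had their highest pair mean in pair 2, with spans of 1.76- and 1.48-fold. Cd200r3 was the steadiest, at 1.04-fold. The summed level of the 12 macrophage markers was lowest in replicate 2 too, at 136 CPM in the Scrambled and 132 CPM in the Zc3h12a RNP sample, within ranges of 136 to 315 CPM and 132 to 298 CPM. Most of that sum was Cx3cr1. Of the other markers, Cd68 (4.04 to 8.96 CPM), Lyz2 (3.71 to 7.46 CPM) and Adgre1 (1.87 to 4.14 CPM) were above 1 CPM in all samples, while Csf1r, C1qa, C1qb and C1qc did not exceed 0.208 CPM in any. Its part in the spread between replicate numbers was not tested.

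**Figure D4:**
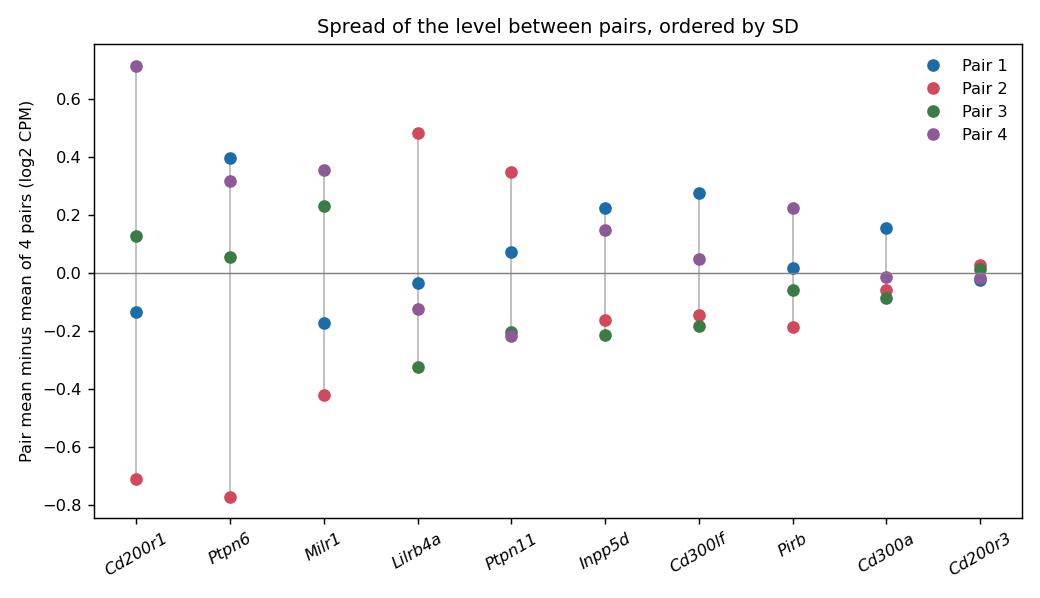
Mean log2 CPM of the Scrambled and Zc3h12a RNP samples of each replicate number, minus the mean of the 4 pairs, for each gene (vertical axis, log2 units). Pair 2 is the lowest point for Cd200r1, Ptpn6, Milr1 and Pirb and the highest for Lilrb4a and Ptpn11, while the 4 points of Cd200r3 nearly coincide.

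Other genes around inhibitory signalling, activating relatives included, were taken from 6 lists. As background for their counts, 6.17% of all tested genes had an unadjusted edgeR p at or under 0.05. Those that were lower at that level made up 4.05%. No listed gene was called by edgeR or by limma-trend, and DESeq2 called 3 (Pilra, Pilrb2 and Sla). Of 20 other inhibitory receptors 13 were tested, of which 1 was higher and 2 lower at an unadjusted edgeR p at or under 0.05, with a median log2 fold change of -0.03. Pecam1, an adhesion receptor with ITIMs, was at 622 ± 56.0 CPM in Scrambled and 607 ± 53.8 CPM in Zc3h12a RNP samples, and the checkpoint receptor Havcr2 (TIM-3) at 300.0 ± 150.3 and 254 ± 106.6 CPM. Fcgr2b, the low-affinity IgG receptor that curbs IgE signalling through SHIP1, hardly differed, at 70.9 ± 1.49 and 71.5 ± 7.56 CPM.

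Pilra, an ITIM receptor that is paired with the activating PILRβ, had the lowest p among the inhibitory receptors. It ranged from 10.6 to 27.1 CPM in Scrambled and from 6.38 to 9.48 CPM in Zc3h12a RNP samples, without overlap. All 4 pairs were lower, and the log2 fold change was -1.15 ± 0.24 (edgeR adjusted p = 0.424). Pilrb2, a gene of the activating partner, likewise ranged from 35.0 to 46.9 CPM in Scrambled and from 17.2 to 31.8 CPM in Zc3h12a RNP samples. Its log2 fold change was -0.84 ± 0.15, also with all 4 pairs lower (edgeR adjusted p = 0.401). Pilrb1 was named after its values were seen, with a log2 fold change of -0.60 ± 0.18 (edgeR adjusted p = 0.637). Reads that these related genes could share were not examined.

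Of 16 activating relatives and adaptors 11 were tested, of which 0 were higher and 3 lower at an unadjusted edgeR p at or under 0.05. The 3 were Cd300lb, Pilrb1 and Pilrb2, beside 4.05% of all tested genes lower at that level. A log2 fold change below 0 was seen in 10 of the 11, with a median of -0.07 against 0.04 for all genes tested. Apart from those of Cd300lb, Pilrb1 and Pilrb2, each of these differences was smaller than its SE, such as -0.02 ± 0.10 for Cd200r4 and -0.08 ± 0.13 for Tyrobp. The share of all genes below 0 was not computed. Fcer1g, the signalling chain of the IgE receptor, was at 555 ± 106 CPM in Scrambled and 524 ± 61.7 CPM in Zc3h12a RNP samples. Of 11 genes listed as ligands 10 were tested, with 0 higher and 2 lower at that level and a median of -0.07. B2m, the light chain of MHC class I, was lower in all 4 pairs, at 683 ± 47.6 and 593 ± 19.98 CPM (log2 fold change -0.20 ± 0.08, edgeR adjusted p = 0.772). The MHC class I heavy chain H2-D1 was at 672 ± 130.4 and 619 ± 70.5 CPM. The interleukin-4 receptor chain Il4ra, which is on this list though itself a receptor, was at 1731 ± 483 and 1669 ± 444 CPM.

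Of 15 inositol and lipid phosphatases 14 were tested and none had an unadjusted edgeR p at or under 0.05, with a median log2 fold change of -0.0044. Inpp4b, which acts on the lipid that SHIP1 forms, was at 624 ± 59.4 CPM in Scrambled and 614 ± 98.4 CPM in Zc3h12a RNP samples, and Inpp5b at 173 ± 28.0 and 184 ± 36.2 CPM. All 16 protein tyrosine phosphatases were tested, with 1 higher and 1 lower at that level and a median of 0.02. Ptpn3 was higher in 4 of 4 pairs, at 15.0 ± 4.10 and 20.3 ± 4.11 CPM (log2 fold change 0.45 ± 0.09, edgeR adjusted p = 0.401). Ptpn2, which dephosphorylates Janus kinases, was at 462 ± 114 and 403.0 ± 126.5 CPM (log2 fold change -0.22 ± 0.09, edgeR adjusted p = 0.796), and the leukocyte phosphatase Ptpn7 at 303 ± 79.2 and 317 ± 57.9 CPM.

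Of 20 genes listed as inhibitory adaptors and kinases 19 were tested, with 1 higher and 2 lower at an unadjusted edgeR p at or under 0.05. Their median was -0.09. Sla, an adaptor that lowers the surface level of antigen receptors, was at 448 ± 175 CPM in Scrambled and 309 ± 116 CPM in Zc3h12a RNP samples. Every pair was lower in the Zc3h12a RNP sample, and the log2 fold change was -0.52 ± 0.12 (edgeR adjusted p = 0.449). Csk, the kinase that switches off Src-family kinases, was at 395 ± 42.0 and 359 ± 43.2 CPM. Pag1 of this list and Lair1, the 1 higher gene among the other inhibitory receptors, were both named after their values were seen. The log2 fold change was -0.41 ± 0.11 for Pag1 (edgeR adjusted p = 0.503) and 0.50 ± 0.12 for Lair1 (edgeR adjusted p = 0.449).

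**Figure D5:**
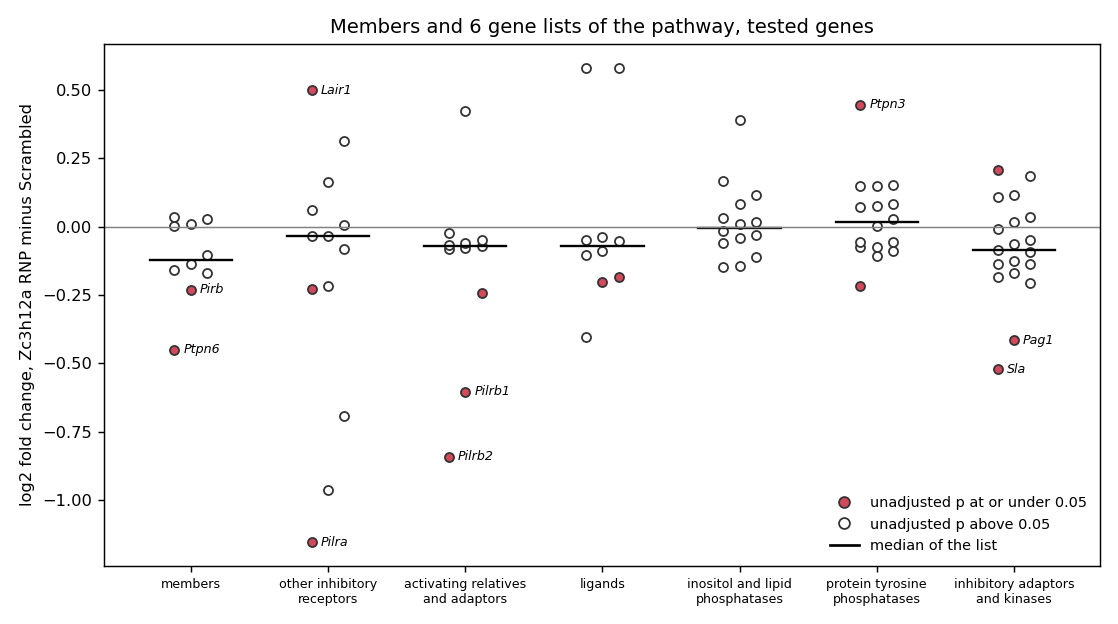
Fitted log2 fold change, Zc3h12a RNP minus Scrambled (vertical axis), of the tested genes among the 10 members and in the 6 lists, with the median of each as a bar. Filled points have an unadjusted edgeR p at or under 0.05, and Pilra (-1.15) and Pilrb2 (-0.84) lie farthest below 0 among them.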

How the data were processed

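RNA of 8 BMMC samples was poly(A)-selected and sequenced. Per the labels and the study's methods, the authors mapped reads to GRCm39 (HISAT2 2.2.1, FastQC 0.11.9) and deposited raw read counts per gene from featureCounts 2.0.1. The batch correction named by the study does not appear in these whole-number counts. Counts were analysed in R 4.3.3 with edgeR 4.0.16 (TMM, filterByExpr, quasi-likelihood test, replicate number as a block, Benjamini-Hochberg adjustment over 14934 genes), and with DESeq2 1.42.0 and limma 3.58.1 as alternatives. The code was tested on simulated data. CPM are TMM-normalized. Log2 pair differences use a prior count of 2. Figures used matplotlib 3.10.9.

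The labels do not say that a replicate number is a mouse. Deviations of same-numbered samples correlated with r of 0.72 to 0.76 over 9668 genes with mean log2 CPM above 2, where other numbers reached 0.14 at most. Over all 14934 genes r was 0.60, 0.08, 0.62 and 0.04 for numbers 1 to 4, and other numbers reached 0.40, so numbers 2 and 4 did not stand out there. The p-values of the blocked fits weigh the difference between the groups against the spread of the pair differences in these samples. In edgeR that spread is drawn toward a trend over all genes, and the SE was derived from the fold change and the test statistic. Neither p nor SE thus measures the pair spread of a gene alone. The spread between replicate numbers does not enter these p-values.

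The members and lists were chosen with earlier results of these data known. Named genes are the members, Zc3h12a, from each list the most abundant pair of genes and the gene of lowest p, any gene called, and relatives of the members; a gene that this rule names is not reported here. Membrane spans were taken as the most hydrophobic stretch of each receptor. Amino acid sequences are not shown.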

Additional observations from a re-analysis of the deposited data

Results flagged for a closer look

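In a group of 4 samples, a sample was singled out where its gap to the nearest other sample, divided by the whole range of the group, was above Dixon's critical value. None of the 10 members had such a sample. Of 56 groups tested, 3 did, where chance gives about 2.8. Zc3h12a was low in Scrambled replicate 1 (24.9 CPM against 37.1 to 39.3 CPM in the others), with a ratio of 0.846. Pecam1 was high in Zc3h12a RNP replicate 2 (687 CPM against 573.5 to 587 CPM), with a ratio of 0.884. Havcr2 was high in Scrambled replicate 3 (524 CPM against 207.5 to 244 CPM), with a ratio of 0.884.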

How the results depend on the processing

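No member was called in any of the 12 alternative settings. Over all genes, 8 were called higher and 52 lower with DESeq2, 1 lower with limma-trend, 1 lower with RLE normalization, 9 higher and 31 lower without the low-count filter, and 3 lower with at least 10 counts in every sample. Leaving out a replicate number gave 0 to 80 higher and 0 to 57 lower. The upper ends came without replicate 2, and without replicate 4 there were 2 lower. Among listed genes 3 were called with DESeq2, 2 without the filter (Pilra and Pilrb2) and 0 to 3 with a replicate left out (Lair1, Pilra and Pilrb2 without replicate 2). The values that changed sign lay between -0.10 (Cd200r3) and 0.04 (Cd200r1) in the main fit, and the cause was not tested. Without the replicate block the log2 fold change of Cd300a was -0.0029, and no call changed. With DESeq2, RLE normalization and at least 10 counts it was -0.013, -0.013 and -0.0078, and that of Inpp5d -0.018, -0.018 and -0.013. With a replicate left out, values ran from -0.034 to 0.051 for Inpp5d, -0.013 to 0.091 for Ptpn11, -0.15 to 0.13 for Cd300a, -0.085 to 0.19 for Cd200r1 and -0.20 to 0.0016 for Cd200r3, and for Zc3h12a from -0.075 to 0.0062. Ptpn6 stayed between -0.50 and -0.39. In all, 161 results were classed as unchanged, 13 counts moved and 16 values changed sign. The unchanged results comprise fold changes that kept their sign and call, and also counts of genes called and mean CPM, which have no direction. No member was near the detection limit: the lowest count of any member in a sample was 640.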
